A study of Mus musculus with 9 samples.

Results

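The comparison described here set 2 mRNA libraries of mouse SV40-MES-13 cells carrying the Drosha shRNA sh7 against 2 libraries of the same line carrying an empty vector (EV). SV40-MES-13 is an immortalised kidney line from a mouse transgenic for SV40 early-region genes and is labelled as renal mesangial. These 4 libraries were taken by their labels from the 9 samples of the series. Of the 55357 genes in the deposited table, 12794 averaged 1 TPM or more across these libraries and were compared. TPM is a transcript abundance scaled for transcript length and for the library's total. The EV cells carry a WT genotype label, and the sh7 cells are labelled Drosha KO in titles and genotype, although the protocol describes lentiviral shRNA knockdown with the pLL3.7 vector, so knockdown is the word used here. All 4 libraries came from cells infected in culture and from mRNA enriched on oligo(dT) beads. Time after infection, selection and clonality are not stated. Nothing says that replicates came from separate infections, so the p-values cover only the variation among these samples, and that variation may be technical. A single library with another Drosha shRNA, sh5, shares the EV controls. Its values stand beside those of sh7 without a test. The other 4 samples are small RNA libraries and are not analysed here.

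Drosha is the nuclear RNase III enzyme that begins microRNA maturation. Together with the RNA-binding protein Dgcr8 it forms the Microprocessor, which cuts the hairpin out of the primary microRNA transcript. The released precursor is exported and diced into the mature microRNA, and the flanking parts of the cut primary transcript are degraded. The Microprocessor also cuts hairpins inside the Dgcr8 mRNA, a feedback by which the complex limits its own cofactor.

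The 2 Drosha-targeting sequences are given first because they define the groups, written as the DNA sequence of the insert, 5′ to 3′.
sh7: gtgtgcccattgaaataaa
sh5: cctggaatatgtccacacttt
The next lines show mature microRNAs whose host transcripts or hairpin loci carry the results below, with the seed, bases 2 to 8, in capitals. Sequences are from RefSeq (GRCm38.p6), and those with the same seed follow each other.
mmu-let-7b-5p: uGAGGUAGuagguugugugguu
mmu-let-7c-5p: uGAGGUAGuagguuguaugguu
mmu-miR-15a-5p: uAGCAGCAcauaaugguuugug
mmu-miR-16-5p: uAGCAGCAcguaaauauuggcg
mmu-miR-17-5p: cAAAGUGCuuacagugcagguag
mmu-miR-20a-5p: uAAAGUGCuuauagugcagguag
mmu-miR-29a-3p: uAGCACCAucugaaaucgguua
mmu-miR-29b-3p: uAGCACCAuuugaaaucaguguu
mmu-miR-221-3p: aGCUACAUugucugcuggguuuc
mmu-miR-222-3p: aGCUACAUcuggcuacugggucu
mmu-miR-22-3p: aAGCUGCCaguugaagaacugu
mmu-miR-23a-3p: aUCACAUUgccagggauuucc
mmu-miR-27a-3p: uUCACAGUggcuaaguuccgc
mmu-miR-24-3p: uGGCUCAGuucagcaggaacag
mmu-miR-146a-5p: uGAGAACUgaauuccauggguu
Lncppara is the host of let-7b and let-7c-2, Dleu2 of miR-15a and miR-16-1, Mir17hg of the miR-17 to 92 cluster and Mir22hg of miR-22. The others shown were read at their own hairpin loci.

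The number of reads behind these values is unknown, because TPM keep no depth. EV replicate 1 stood apart. Over the tested genes its log2(TPM + 1) values correlated with those of EV replicate 2 at r = 0.968, whereas EV replicate 2 correlated with each sh7 library at 0.978 and the sh7 libraries with each other at 0.982 (Pearson, a description across genes of these libraries). The mesangial label was not borne out by most of its markers. Of 21 mesangial and pericyte markers, 16 lay below 1 TPM in all 4 libraries, the defining Pdgfrb, Itga8, Acta2 and Gata3 among them. Gata3 reached at most 0.559 TPM. Des, also defining, was at 1.05 and 1.05 TPM in EV against 0.191 and 0.585 TPM in sh7. Fhl2 was at 30.2 to 44.2 TPM and Mcam at 6.45 to 8.08 TPM, and Tagln reached 2.30 TPM in sh7 replicate 2. The 21 markers summed to 889 and 841 TPM in EV against 675 and 555 TPM in sh7. Most of this was Vim, an intermediate filament gene that many cultured cells express. Of 22 tubule and epithelial markers 14 passed the filter, including Cdh16 at 126 to 147 TPM and Pax8 at 68.3 to 89.0 TPM. The other 8 lay below 1 TPM in all 4 libraries, with Slc34a1, Umod and Aqp2 at 0. The list summed to 926 TPM in EV replicate 1, 1275 TPM in EV replicate 2 and 1083 and 1138 TPM in sh7. Of this the keratin Krt18 gave 454 and 659 TPM in EV and 552 and 535 TPM in sh7. Epcam, an epithelial adhesion protein, was at 26.9 TPM in EV replicate 1 and between 52.4 and 55.4 TPM in the other 3 libraries. The cells are called here by their line name. The part of these marker differences in the results was not tested, and in bulk RNA fewer cells of a type and less RNA per cell cannot be told apart.

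Dgcr8 and a microRNA host transcript were among the few genes that passed the test. By limma on log2(TPM + 1), 3 of the 12794 genes passed an adjusted p of 0.05 (0.0234%), and all 3 rose: Dgcr8, the miR-22 host transcript Mir22hg and AL805899.1, a gene known by a clone name and given no role here (2.71 and 3.98 TPM in EV against 48.2 and 55.1 TPM in sh7, log2 3.61, SE 0.193, adjusted p = 0.0420). AL805899.1 is named because it passed, after its values were seen. At an unadjusted p under 0.05, 10.4% of genes were higher and 4.1% lower in sh7. Both sh7 libraries lay above both EV libraries for 4587 genes (35.9%) and below both for 1820 (14.2%). Every sh7 value was at least 1.5-fold above every EV value, on the TPM + 1 scale, for 275 genes (2.15%), and at least 1.5-fold below for 83 (0.649%). The median of all tested genes was 0.09 log2 units. It moved by -0.10 under median-of-ratios scaling and by -0.11 under quantile normalization, where the shares above and below became 22% and 25.7%, and 21.3% and 25.3%. Small differences are read against this median.

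Drosha itself was at 60.0 and 56.4 TPM in EV, against 8.39 and 14.9 TPM in sh7. Both sh7 libraries lay far below both EV libraries, and the sh5 library was at 36.0 TPM. The mean was 58.2 ± 2.57 TPM for EV and 11.7 ± 4.63 TPM for sh7 (SD, n = 2 each), a ratio of 0.20. The log2 difference was -2.27 (SE 0.266, adjusted p = 0.103), and it was -2.32 against EV replicate 1 and -2.23 against EV replicate 2. It missed the threshold in a fit with 2 residual degrees of freedom, and the sh7 replicates differed from each other more than the EV replicates did.

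Dgcr8, whose mRNA is a Microprocessor substrate, rose, at 26.7 and 26.3 TPM in EV against 171 and 161 TPM in sh7. Both pairs of replicates lay close together beside that gap, and the sh5 library, at 24.3 TPM, lay just below EV. The ratio of means was 6.27 and the log2 difference 2.60 (SE 0.0862, adjusted p = 0.0126), with 2.59 against EV replicate 1 and 2.61 against EV replicate 2. Genes beside it lay nearer to their EV levels. Of 11 tested neighbours 2 lay above and 2 below both EV libraries, with a median of 0.05 log2 units. That was 18.2% each, where the shares of all genes were 35.9% and 14.2%. The adjoining Tango2 was at 21.5 and 22 TPM in EV against 30.1 and 27.2 TPM in sh7, and Ranbp1, which regulates the Ran GTPase, at 750 and 718 TPM against 690 and 680 TPM. Of 4 mRNAs listed as described to be cut by the Microprocessor, Dgcr8 among them, 2 were tested. The other, Nfib, lay just below both EV libraries, at 11.1 and 8.31 TPM in EV against 5.50 and 8.10 TPM in sh7 (log2 -0.47).

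Among 18 tested Microprocessor subunits and cofactors, 8 lay above and 3 below both EV libraries, and the median was 0.01. That was 44.4% and 16.7%, where the shares of all genes were 35.9% and 14.2%. Apart from Drosha and Dgcr8 the members with the smallest p were the RNA-binding factor Safb2 (41.7 and 43.0 TPM in EV against 59.3 and 54.0 TPM in sh7), the helicase Ddx17 (134 and 140 TPM, 169 and 166 TPM) and the small cofactor Erh (490 and 466 TPM, 366 and 407 TPM). Their log2 differences were 0.41, 0.30 and -0.31, with adjusted p from 0.253 to 0.278. In the export, dicing and silencing machinery 8 of 21 members lay above and 4 below both EV libraries, close to the shares of all genes. The silencing scaffold Tnrc6a was at 16.8 and 27.5 TPM in EV against 36.0 and 41.4 TPM in sh7 (log2 0.81, SE 0.246, adjusted p = 0.292).

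Long noncoding RNAs that hold a microRNA hairpin on their own strand lay mostly above EV. By RefSeq gene order 14 such lncRNAs were tested. Of these 11 lay above both EV libraries and 1 below, 7 by at least 1.5-fold, with a median of 1.17 log2 units (1.25 against EV replicate 1 and 0.98 against EV replicate 2). Among the 412 tested lncRNAs with no hairpin, 36.2% lay above and 8.25% below both EV libraries, and the median was 0.18. The counts of 11 and 1 were the same under median-of-ratios scaling and quantile normalization.

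Mir22hg rose, at 4.55 and 4.46 TPM in EV against 42.0 and 38.4 TPM in sh7 (log2 2.90, SE 0.129, adjusted p = 0.0260), with 1.20 TPM in sh5. The difference was 2.89 against EV replicate 1 and 2.91 against EV replicate 2. Of its 9 tested neighbours 3 lay above and 1 below both EV libraries, with a median of 0.09. That was 33.3% and 11.1%, close to the shares of all genes (35.9% and 14.2%). Among the flanking genes Wdr81 was at 14.4 and 19.4 TPM in EV against 23.95 and 20.03 TPM in sh7 and Tlcd2 at 1.98 and 1.20 TPM against 2.63 and 3.26 TPM, and the splicing factor gene Prpf8 was the 1 below, at 138 and 139 TPM against 118 and 123 TPM. The let-7 host Lncppara was at 1.55 and 0.399 TPM in EV against 21.1 and 34.8 TPM in sh7. The log2 difference was 3.90 (SE 0.391, adjusted p = 0.0990). Its level differed between the EV replicates, and the difference was 3.46 against EV replicate 1 and 4.33 against EV replicate 2.

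Dleu2 was at 4.71 and 6.36 TPM in EV against 18.6 and 22.1 TPM in sh7 (log2 1.71, SE 0.192, adjusted p = 0.0990). The miR-101a host E130102H24Rik was listed at 0 and at 0.399 TPM in EV, against 5.67 and 10.9 TPM in sh7. Mir17hg stood at 2.24 and 2.30 TPM against 7.06 and 10.6 TPM. These transcripts were apart from EV in both sh7 libraries, and the 3 of them were at 2.89, 0 and 0.545 TPM in sh5. For Dleu2 and Mir17hg the sh5 library thus lay below both EV libraries, and for E130102H24Rik it equalled the lower EV value. Ftx, the host of miR-374b and miR-421, was at 1.59 and 1.94 TPM in EV against 3.32 and 3.75 TPM in sh7, and Snhg20 at 6.93 and 9.74 TPM against 14.5 and 18.5 TPM. Mir100hg, the host of miR-100, let-7a-2 and miR-125b-1, was 1.94 log2 units above EV replicate 1 and 0.91 above EV replicate 2.

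**Figure D1:**
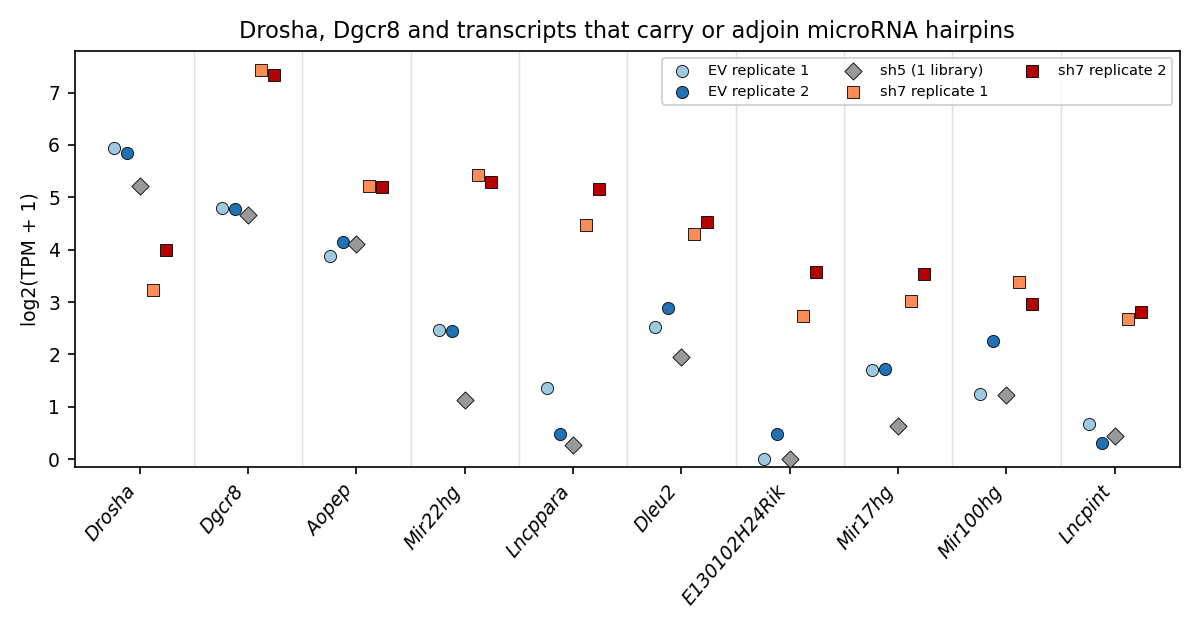
Levels, as log2(TPM + 1), of Drosha, Dgcr8 and 8 transcripts that carry or adjoin microRNA hairpins, with 1 point per library for EV (circles), sh5 (diamond) and sh7 (squares). Drosha was at 60.0 and 56.4 TPM in EV against 8.39 and 14.9 TPM in sh7, and for the other 9 transcripts both sh7 libraries lay above both EV libraries.

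Protein-coding hosts were placed like other protein-coding genes. Of 375 tested, 148 lay above and 49 below both EV libraries, 39.5% and 13.1%, against 36.2% and 14.7% of the 10439 protein-coding genes with no hairpin. Their median was 0.09, that of all genes. Every sh7 value was at least 1.5-fold above every EV value for 6 of the 375 hosts, and for 135 of the 10439 genes with no hairpin. Besides Dgcr8, these hosts included Aopep, an aminopeptidase gene that holds miR-23b, miR-27b and miR-24-1. It was at 13.7 and 16.7 TPM in EV against 36.3 and 35.8 TPM in sh7 (log2 1.20, SE 0.134, adjusted p = 0.0990), and 1.33 and 1.07 log2 units from the respective EV libraries. Chpf2, a chondroitin synthesis gene that hosts miR-671, was at 27.2 and 25.1 TPM against 51.8 and 45.4 TPM (adjusted p = 0.134). Mcm7, the replication helicase subunit that hosts the miR-106b cluster, was at 373 and 338 TPM against 459 and 434 TPM (log2 0.33, adjusted p = 0.271).

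More hairpin loci had a value above 0 in sh7 than in EV. Of 1187 hairpin loci in the table, 36 and 43 were above 0 in the EV libraries, 70 and 87 in the sh7 libraries and 23 in the sh5 library. At 23 loci both sh7 libraries were above 0 and both EV libraries at 0, which is 1.94% of the loci, where the same holds for 1.27% of all genes in the table. At 4 loci it was the other way round, where the share over all genes is 0.551%. Loci at 0 in EV passed the filter on their sh7 values alone, an exact 0 can be a failed estimate, and no fold is given. More genes overall were above 0 in sh7 as well, 21717 and 22045 against 20868 and 20717 in EV, and the part of this in the hairpin counts was not tested.

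The loci with the highest values included members of known clusters. Mir29a was listed at 0 in both EV libraries and at 11.3 and 21.1 TPM in sh7, and its partner Mir29b-1 at 3.83 and 5.4 TPM. Mir23a was at 11.5 and 8.17 TPM, Mir27a at 6.31 and 8.30 TPM and Mir24-2 at 2.55 and 1.70 TPM in sh7, again with both EV libraries and sh5 at 0. Mir146, the miR-146a locus, was at 6.95 and 15 TPM, Mir222 at 5.17 and 3.65 TPM and Mir221 at 1.44 and 7.04 TPM. Each of these 8 loci was at 0 in both EV libraries. Identical low values recurred at unrelated loci, as 1.70112 TPM at Mir103-2, Mir28a and Mir301 in sh7 replicate 2. Values of this size, such as the lower ones of Mir24-2 and Mir221, may thus stand for very few reads. Lncpint, the lncRNA that adjoins Mir29a and Mir29b-1, was at 0.589 and 0.230 TPM in EV against 5.39 and 6.0 TPM in sh7 (log2 2.26, SE 0.256, adjusted p = 0.0990). Of the 23 loci 12 lay inside a same-strand host, against 49.5% of all hairpin loci in the RefSeq table.

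**Figure D2:**
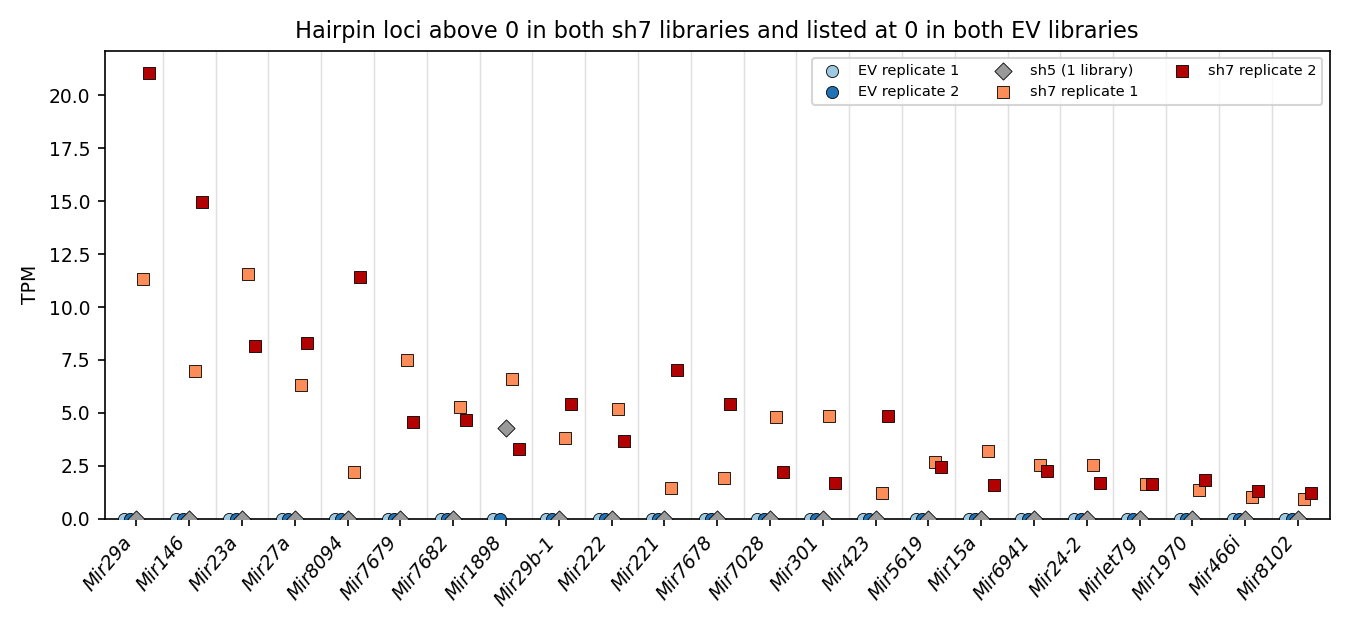
TPM of the 23 hairpin loci above 0 in both sh7 libraries and listed at 0 in both EV libraries, ordered by their sh7 mean, with 1 point per library. Mir29a was highest, at 11.3 and 21.1 TPM, and Mir1898 was the locus above 0 in sh5.

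Some hairpin loci were read in all 4 EV and sh7 libraries. Mir186, inside the splicing gene Zranb2, was at 4.51 and 4.16 TPM in EV against 13.4 and 10.8 TPM in sh7 (log2 1.29, SE 0.179, adjusted p = 0.145), and at 0 in sh5. Mir196a-1 was at 27.2 and 42.1 TPM against 50.8 and 46.2 TPM, a gap smaller than that between the EV replicates. Leaving out Mir6236, which was at 4690 to 6704 TPM, the hairpin loci summed to 117 and 163 TPM in EV against 316 and 399 TPM in sh7.

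Whether a difference held against each EV library was then read gene by gene. The sh7 mean was at least 1 log2 unit above EV replicate 1 for 598 genes. Of these 522 were also above EV replicate 2, but 157 by as much. Starting from EV replicate 2, 298 genes were at least 1 log2 unit higher, 251 of them above EV replicate 1 too. On the lower side, 163 genes were at least 1 log2 unit below EV replicate 1, of which 109 were below EV replicate 2 and 38 by as much. Among the 275 genes at least 1.5-fold above every EV value the median was 1.77 against EV replicate 1 and 0.99 against EV replicate 2, and the EV replicates differed by more than 1 log2 unit for 30.9% of them, against 4.92% of all tested genes. For the 83 genes on the lower side the medians were -1.03 and -0.96, and 2 genes had such a gap between EV replicates.

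**Figure D3:**
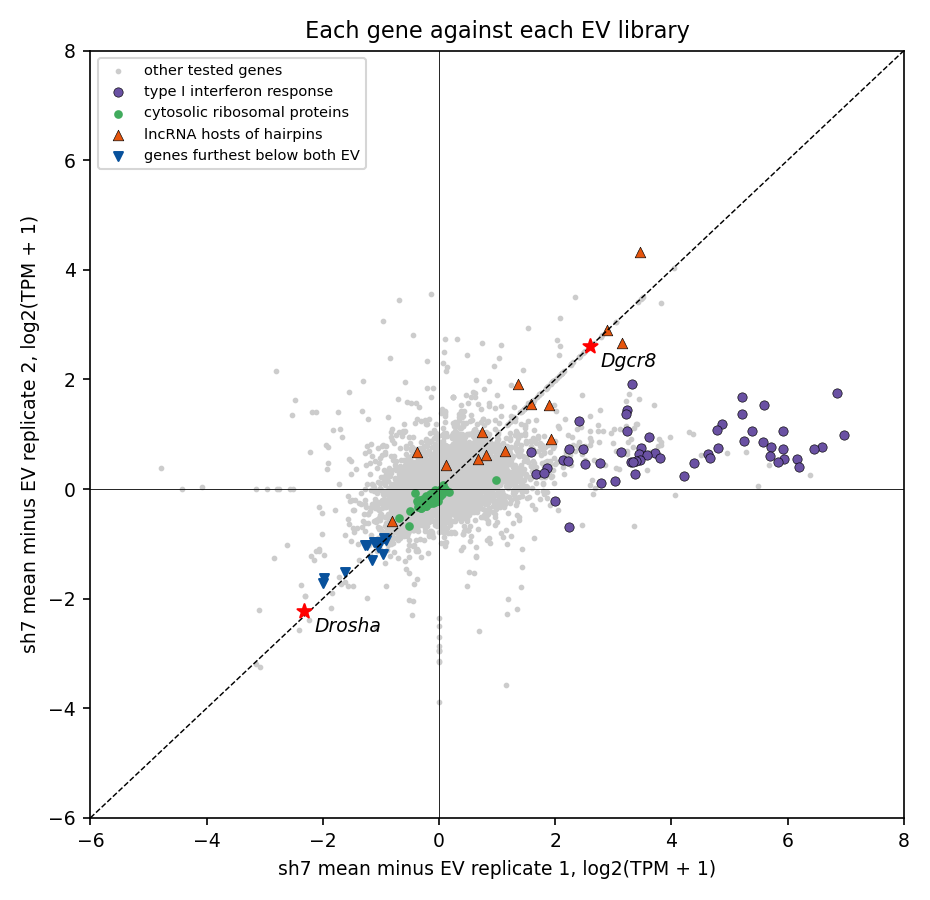
Difference of the sh7 mean from EV replicate 1 (x axis) and from EV replicate 2 (y axis), in log2(TPM + 1), for 12794 genes; the dashed line marks equal differences. Dgcr8 (2.59 and 2.61), Drosha (-2.32 and -2.23) and the lower genes lay near the line, whereas the interferon genes spread along the x axis.

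Type I interferon response genes differed widely between the control libraries. Of 56 tested, 54 lay above both EV libraries, and 0 below, by a median of 2.25 log2 units. The median was 3.60 against EV replicate 1 and 0.65 against EV replicate 2, with all 56 and 13 members, respectively, at least 1 log2 unit higher. EV replicate 1 held the lowest value for each of the 56 members. The antiviral tetratricopeptide gene Ifit3 was at 0.519 and 51.3 TPM in EV against 170 and 180 TPM in sh7, with 23.3 TPM in sh5 (log2 4.30, SE 1.64, adjusted p = 0.342), and thus 6.85 log2 units from EV replicate 1 and 1.75 from EV replicate 2. Oas2, an activator of RNase L, was at 0.204 and 12.9 TPM against 38.9 and 49.5 TPM, and Ifit2 at 16.5 and 38.5 TPM against 93.0 and 92.5 TPM. The interferon-induced GTPases Tgtp1, Tgtp2 and Iigp1, together with Phf11d, were at 1.83 to 3.63 TPM in EV replicate 2 and 7.77 to 14.1 TPM in sh7. In these 7 genes and Ifit3b, which lay furthest above both EV libraries, the difference was 1.25 to 1.91 log2 units from EV replicate 2 and 2.42 to 6.85 from EV replicate 1. No list member passed over all genes by limma (adjusted p = 0.222 to 0.342 for these 8), with 13 of 56 at an unadjusted p under 0.05.

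Some genes separated sh7 from EV replicate 1 but hardly from EV replicate 2. At a mean of at least 5 TPM, and leaving out predicted models and pseudogenes, 55 genes were at least 1 log2 unit above EV replicate 1 and within 0.25 log2 units of EV replicate 2. Of these 3 were in the interferon list, 1 was in the class I list alone and 51 were in neither. The snoRNA gene Snora57 was furthest from EV replicate 1, listed at 0 and at 42.5 TPM in EV against 29.2 and 66.4 TPM in sh7. The transcription factor Irf9 was at 8.17 and 58.0 TPM in EV against 60.2 and 64.8 TPM in sh7, and the DNA sensor Ifi204 at 4.84 and 91.4 TPM against 97.9 and 118 TPM. The class I gene H2-T23 was at 19.2 and 110 TPM against 127 and 123 TPM. The reverse pattern, higher than EV replicate 2 alone, was met by 4 genes, the mitochondrial COX2 and ND5, Snord91a and Cd1d1. Below EV replicate 1 alone were 7 genes, among them Foxj1 (13.4 TPM, against 3.08 to 3.49 TPM in the other 3 libraries) and Ier2 (80.4 TPM, against 31.4 to 42.4 TPM).

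Antigen presentation genes also lay above EV by more against EV replicate 1. Of 23 tested genes of MHC class I presentation and the immunoproteasome, 19 lay above and 2 below both EV libraries. The median was 1.23, with 1.81 against EV replicate 1 and 0.59 against EV replicate 2. Nlrc5, the transactivator of class I genes, was at 0.594 and 4.58 TPM in EV against 12.1 and 22.1 TPM in sh7, and H2-Q7 at 10.2 and 32.2 TPM against 69.2 and 78.5 TPM. H2-M3 had the smallest p, at 16 and 20.8 TPM against 30.9 and 32.9 TPM (log2 0.77, SE 0.158, adjusted p = 0.232). In the inflammatory and NF-kB list of 36, both sh7 libraries exceeded EV for 15 members and fell short for 1 (41.7% and 2.78%). The shares of all genes were 35.9% and 14.2%. The list median was 0.28, with 0.42 against EV replicate 1 and 0.13 against EV replicate 2. Il15 was listed at 0 and at 0.357 TPM in EV, against 2.91 and 2.94 TPM in sh7. The ubiquitin editor Tnfaip3, an inhibitor of NF-kB, was at 6.21 and 6.76 TPM against 12.6 and 12.3 TPM, a difference of 0.90 from EV replicate 1 and 0.80 from EV replicate 2 (adjusted p = 0.200).

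The genes furthest below EV stood at similar distances from both controls. Apart from Drosha, the rule by smallest pairwise difference named 14 genes, with log2 differences from -1.86 to -0.92 (SE 0.0734 to 0.225, adjusted p = 0.0901 to 0.134). Their differences ran from -2.0 to -0.91 against EV replicate 1 and from -1.72 to -0.89 against EV replicate 2. Fkbp1b, which binds ryanodine receptors, was at 10.4 and 7.95 TPM in EV against 1.66 and 2.16 TPM in sh7, with 9.98 TPM in sh5. Pkig, an inhibitor of protein kinase A, was at 60.9 and 49.7 TPM against 11.9 and 17.4 TPM, with 44.6 TPM in sh5. Bloc1s4, a subunit of a lysosome-related organelle complex, was at 28.3 and 26.3 TPM against 7.74 and 9.38 TPM, with 27.3 TPM in sh5. In these genes the sh7 values were apart from all other libraries, and the sh5 library lay inside or close to the EV range.

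The smallest unadjusted p on the lower side belonged to Ppp1r14b, a phosphatase inhibitor, at 511 and 489 TPM in EV against 266 and 261 TPM in sh7, with 554 TPM in sh5 (log2 -0.92, SE 0.0734, adjusted p = 0.0901). Carnmt1, the carnosine methyltransferase, was at 55.4 and 55.3 TPM against 25.6 and 26.6 TPM. Smn1, which assembles spliceosomal snRNPs, was at 68.2 and 68.9 TPM against 36.6 and 35.1 TPM. The RNA helicase Ddx1 was at 119 and 113 TPM against 54.4 and 61.0 TPM. In sh5 these 3 were at 53.1, 75.3 and 113 TPM. Secretory pathway genes were among the 14, with the signal recognition particle receptor Srpr at 51.2 and 59.9 TPM against 23.3 and 28.3 TPM and the cargo receptor Tmed4 at 79.1 and 68.0 TPM against 30.9 and 35.1 TPM. Other members were S100a16, Trabd, Bzw2 and Slc35c2. Since sh7 and sh5 differ in both sequence and Drosha level, the depth of knockdown and an effect of the shRNA sequence cannot be told apart.

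**Figure D4:**
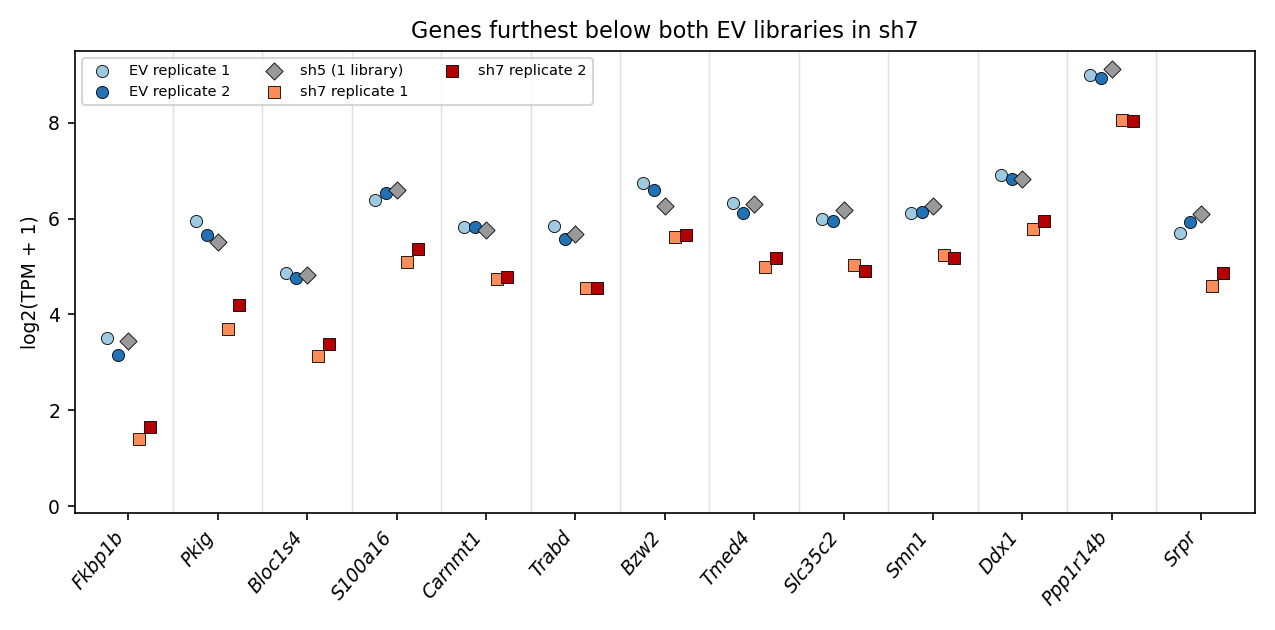
Levels, as log2(TPM + 1), of 13 of the 14 genes named as furthest below both EV libraries in sh7, with 1 point per library. Both sh7 libraries lay below both EV libraries for each gene, as for Ppp1r14b at 266 and 261 TPM against 511 and 489 TPM, and the sh5 library, such as 554 TPM for Ppp1r14b, lay above both sh7 libraries.

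Cytosolic ribosomal protein mRNAs lay below EV by small amounts in most members. In the large subunit 35 of 49 lay below and 1 above both EV libraries, with a median of -0.14. In the small subunit 23 of 34 lay below and 0 above, with a median of -0.13. The medians against EV replicate 1 and replicate 2 were -0.11 and -0.15 for the large and -0.12 and -0.16 for the small subunit. Of all genes 14.2% lay below as deposited. Under quantile normalization the counts below were 24 of 49 and 15 of 34, where 25.3% of all genes lay below. The medians were then -0.07 and -0.09, where that of all genes was -0.02. Under median-of-ratios scaling the counts below were 44 of 49 and 27 of 34, where 25.7% of all genes lay below. Rps12 was at 2092 and 2337 TPM in EV against 1545 and 1379 TPM in sh7, with 2621 TPM in sh5 (log2 -0.60, SE 0.104, adjusted p = 0.203). At an unadjusted p under 0.05 there were 9 large and 8 small subunit genes, and 0 passed by limma over all genes.

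Of 47 translation factors 23 lay below and 6 above both EV libraries (48.9% and 12.8%), with a median of -0.09. For this and the next lists, the shares of all genes were 14.2% below and 35.9% above. Eif4ebp1, a repressor of cap-dependent translation, was at 162 and 178 TPM in EV against 116 and 109 TPM in sh7, and Eif5a, an elongation factor, at 2323 and 2351 TPM against 1834 and 1720 TPM. Among 81 ribosome biogenesis genes 31 lay below and 10 above (38.3% and 12.3%), with a median of 0.01 against EV replicate 1 and -0.09 against EV replicate 2. The nucleolar chaperone Npm1 was at 2766 and 2615 TPM against 1978 and 1941 TPM (log2 -0.46, SE 0.0804, adjusted p = 0.204). In the unfolded protein response list 20 of 37 lay below and 4 above both EV libraries, with a median of -0.17 that was -0.16 against EV replicate 1 and -0.08 against EV replicate 2. Its members went both ways, since the chaperones Hspa5 (1272 and 1046 TPM against 798 and 929 TPM) and Sdf2l1 (147 and 103 TPM against 70.5 and 71.5 TPM) were lower, and Dnajb9, a co-chaperone, was at 10.7 and 10.9 TPM against 18.7 and 18.0 TPM. Sdf2l1 stood 1.04 log2 units below EV replicate 1 and 0.53 below EV replicate 2.

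**Figure D5:**
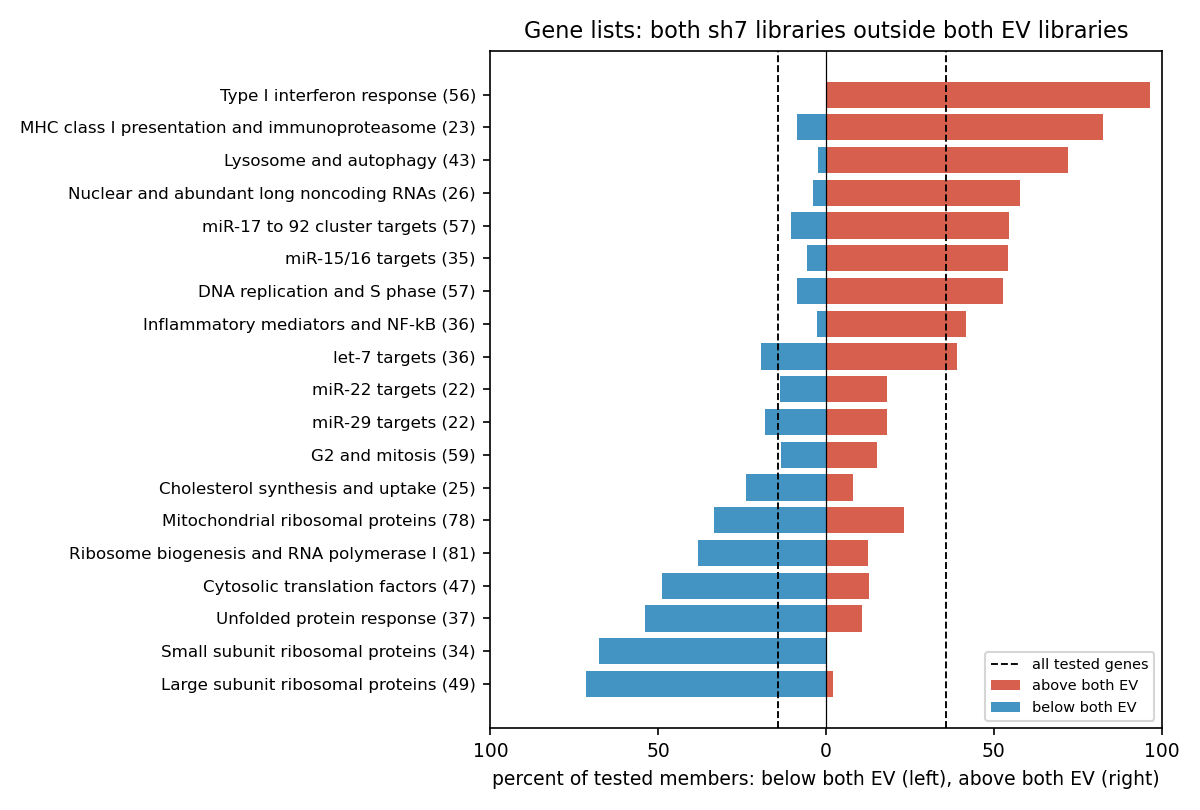
Percent of the tested members of 19 of the 48 gene lists (chosen after their values were seen; number tested in parentheses) for which both sh7 libraries lay above both EV libraries, to the right, or below both, to the left. Dashed lines give the shares of all tested genes, 35.9% above and 14.2% below, and the interferon list (54 of 56 above) and the ribosomal protein lists (35 of 49 and 23 of 34 below) lay far from them.

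In lists of genes known as microRNA targets, members lay on both sides of EV. Of 57 miR-17 to 92 targets 31 lay above and 6 below both EV libraries (54.4% and 10.5%), with a median of 0.22 that was 0.33 against EV replicate 1 and 0.17 against EV replicate 2. The ubiquitin ligase gene Mylip was at 1.33 and 2.02 TPM in EV against 4.92 and 6.2 TPM in sh7, and Zfp367, a zinc finger gene, at 23.1 and 36.2 TPM against 69.5 and 65.1 TPM. The histone methyltransferase gene Ezh1 was at 11.8 and 12.5 TPM against 21.1 and 21.4 TPM (log2 0.76, SE 0.120, adjusted p = 0.174). For miR-15/16 targets 19 of 35 lay above and 2 below, with a median of 0.14 (0.21 and 0.19 against the respective EV libraries), among them the elongation cyclin Ccnt2 (11.7 and 13.4 TPM against 21.9 and 20.4 TPM) and the kinase Wee1 (12.6 and 15.7 TPM against 22.9 and 22.1 TPM). Under median-of-ratios scaling 22 of 57 and 13 of 35 lay above, where 22% of all genes did. The miR-17 to 92 median was then 0.12, where that of all genes was -0.01.

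The other target lists had medians that depended on the EV library. The shares of all genes above and below both EV libraries were 35.9% and 14.2%. Of 36 let-7 targets 14 lay above and 7 below both EV libraries (median 0.06), of 22 miR-29 targets 4 and 4 (0.05), and of 22 miR-22 targets 4 and 3 (0.01). Against EV replicate 1 these medians were 0.13, -0.10 and -0.06, where that of all genes was 0.06, and against EV replicate 2 they were 0.02, 0.13 and 0.04, where that of all genes was 0.11. The let-7 target Arid3a was at 1.10 and 1.89 TPM in EV against 3.28 and 4.71 TPM in sh7, whereas Myc was at 199 and 181 TPM against 140 and 148 TPM and the cell cycle gene E2f5 at 17 TPM in both EV libraries against 10.9 and 12.7 TPM. Cd151, a tetraspanin listed as a miR-22 target, was at 130 and 125 TPM against 72.3 and 74.4 TPM (log2 -0.79, SE 0.0802, adjusted p = 0.0990). The mature microRNAs were not measured in these libraries.

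Lysosome and autophagy genes and abundant lncRNAs lay above EV for more than 0.5 of their members as deposited, where 35.9% of all genes did. Under median-of-ratios scaling fewer members lay above, as did fewer of all genes (22%). Of 43 lysosomal and autophagy members 31 were above both EV libraries and 1 was below, with a median of 0.24 that was 0.34 against EV replicate 1 and 0.15 against EV replicate 2. Atg16l1, which helps to conjugate proteins to autophagosome membranes, was at 20.5 and 21 TPM in EV against 28.4 and 31.5 TPM in sh7, and Gabarapl1, an autophagosome protein, was the exception, at 59.8 and 67.5 TPM against 38.6 and 37.0 TPM. With median-of-ratios scaling 16 of 43 lay above, where 22% of all genes did. Of 26 abundant lncRNAs 15 lay above and 1 below both EV libraries, with a median of 0.32 that was 0.48 against EV replicate 1 and 0.21 against EV replicate 2. Under median-of-ratios scaling 9 and under quantile normalization 12 of the 26 lay above, where 22% and 21.3% of all genes did. Neat1, the scaffold of paraspeckles, was at 8.29 and 24.1 TPM in EV against 112 and 78.6 TPM in sh7 (log2 2.63, SE 0.496, adjusted p = 0.219), 3.35 log2 units from EV replicate 1 and 1.92 from EV replicate 2. Norad, a cytoplasmic sponge of Pumilio proteins, was at 89.5 and 89.7 TPM against 115 and 118 TPM, and equally far from each EV library (0.37).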

How the data were processed

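mRNA was measured in 2 EV, 2 sh7 and 1 sh5 library. The deposited values are TPM per gene, which the authors made with kallisto 0.48.0, per the submitters' processing notes; for its build and annotation, not given in the sources used here, no assumption was made. TPM keep no read depth, so no counting interval can be given. kallisto shares reads among transcripts, so hairpin loci inside hosts, and genes with near-identical copies such as Tgtp1 and Tgtp2 or Ifit3 and Ifit3b, may exchange values. Strand use is not stated. Some genes that met the naming rule are not reported here.

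Genes averaging 1 TPM or more across the 4 EV and sh7 libraries were tested with limma 3.58.1 (R 4.3.3, empirical Bayes with a trend, two-sided) on log2(TPM + 1), where the pseudocount of 1 understates differences of low genes. Every adjusted p is limma's, Benjamini-Hochberg adjusted over 12794 genes with a threshold of 0.05, from 2 residual degrees of freedom. The smallest two-sided exact permutation p of 2 against 2 is 0.333, so none was run. Only the limma fit was tested on simulated data, with known changes and no control library that stands apart. The counts of genes above or below EV were not simulated. A gene lay above or below EV where both sh7 libraries exceeded, or fell short of, both EV libraries. Genes were named by the smallest pairwise difference (15 each way, mean of at least 5 TPM, above 0 in all 4 libraries), by the smallest p (5 each way), by values at 0 in one group, by a difference from one EV library alone, and by the 3 smallest p within each of 48 lists. Predicted and clone-named models were left out of all but the last. Hosts are same-strand genes around a hairpin in RefSeq (GRCm38.p6) and neighbours lie within 100 kb; a few hosts are named beyond the rule. The gene set, lists and comparisons were chosen with earlier results of these data known. Alternatives changed the pseudocount, filter, scaling, variance model, a replicate block, the sh5 library and each left-out library.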

Additional observations from a re-analysis of the deposited data

How the results depend on the processing

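The 3 called genes became 0 without the filter (2734 at an unadjusted p under 0.05), 19 without the limma trend and 8 with robust limma, and 2 to 4 under the other settings that kept 4 or more libraries. Leaving out 1 library gave 0 to 280 calls, with 4 without EV replicate 1, 280 without EV replicate 2 (235 higher, 45 lower) and 0 without either sh7 library (762 and 751 at an unadjusted p under 0.05). These fits have 1 residual degree of freedom and assume that the lone library varies like the other group. Genes above both EV libraries numbered 7531 without the filter, 2815 with median-of-ratios scaling, 2720 with quantile normalization and 5986 to 7072 with a library left out; genes below both numbered 3286, 3238 and 2809 to 4082 under the last 3. The cause was not tested, except that a left-out library leaves fewer pairs to satisfy. Dgcr8 stayed at 2.60 without the filter, where its adjusted p by limma was 0.184, and at 2.56 to 2.64 without an sh7 library, with adjusted p of 0.719 and 0.604. AL805899.1 missed the threshold at pseudocounts of 0.1 and 0.5, without the filter, under both rescalings, with all 5 libraries fitted and without either sh7 library. With a replicate block 2 genes were called, Dgcr8 and AL805899.1, and Mir22hg had an adjusted p of 0.0562 by limma. Same-numbered libraries did not deviate together (r = -0.0101 across 12794 genes), so the numbers are not taken as pairs. Differences that reversed were those of Foxj1 (-1.73 to 0.0974), Mgll (-1.15 to 0.0857), Csrnp1 (-1.14 to 0.0702), Ier2 (-1.12 to 0.0336) and Snord91a (-0.17 to 1.29) when an EV library was left out. All of these were named for a difference from a single EV library, so such a swing was built into their choice. Of 1670 single-gene values 1605 kept their direction and side of the threshold. Nearly all of these genes missed the threshold in the main fit, and many were named because all pairs of libraries agreed. The count was thus largely set in advance and is no measure of robustness. The unknown depth limits values near 0 most.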

Other observations

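Timm10b, a mitochondrial import chaperone, is listed under 2 gene identifiers with opposite differences. One was at 0.984 and 4.77 TPM in EV against 13.8 and 23.9 TPM in sh7, with 19 TPM in sh5. The other was at 73.8 and 72.3 TPM in EV against 47.5 and 47.3 TPM in sh7, with 73.6 TPM in sh5. Gtpbp2, which rescues stalled ribosomes, was at 27.2 and 29.3 TPM in EV against 56.0 and 56.4 TPM in sh7, with 32.6 TPM in sh5 (log2 0.97, SE 0.0971, limma adjusted p = 0.0990).

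In the DNA replication and S phase list 30 of 57 members were above and 5 below both EV libraries, against 35.9% and 14.2% of all tested genes. With median-of-ratios scaling 11 were above and 15 below, where 22% and 25.7% of all genes were. Quantile normalization gave 17 and 9, where the shares of all genes were 21.3% and 25.3%. Of 59 genes of G2 and mitosis 9 lay above and 8 below, and 2 and 24 under median-of-ratios scaling. Their median was -0.09 against EV replicate 1 and 0.12 against EV replicate 2, so that its sign turned with the control. The difference between these lists was not tested. Ckap2l, a spindle protein, was at 82.8 and 74.1 TPM in EV against 43.8 and 44.0 TPM in sh7 (log2 -0.82, limma adjusted p = 0.108).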
